A study of Mus musculus with 3 samples.

Results

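The genes that encode secreted Wnt antagonists in adipose tissue were followed here in single cells. The group held 8 genes, taken by symbol from the 32285 genes of the count files: *Sfrp1*, *Sfrp2*, *Sfrp4*, *Sfrp5* and *Frzb* of the secreted frizzled-related protein family, the Dickkopf genes *Dkk2* and *Dkk3*, and *Wif1*. All 8 were present in every library. The cells came from the stromal vascular fraction (SVF, the cells left once fat is digested and mature adipocytes are spun off) of inguinal white adipose tissue of C57BL/6 mice aged 4 weeks. Live cells negative for the leukocyte marker Cd45 had been sorted from pooled male and female mice, with DAPI used to mark the dead cells, and sequenced with 10x Genomics 3′ chemistry. The 3 libraries were 1 each from wild-type mice, from mice with *Mgp* deleted in the whole body (*Mgp*-KO) and from *Mgp* flox/flox;*Pdgfra*-Cre mice (*Pd*-KO). In the *Pd*-KO mice a Cre transgene under *Pdgfra* control, active in mesenchymal cells, removed the floxed *Mgp* gene, which encodes the calcification inhibitor matrix Gla protein. No library of floxed mice without Cre was analysed here, so the wild-type library was the control of both comparisons, which therefore shared it.

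Wnt proteins are secreted ligands that bind Frizzled receptors together with the co-receptors LRP5 and LRP6 and stabilize β-catenin, and this signal is known to hold preadipocytes back from becoming adipocytes. Secreted frizzled-related proteins (Frzb is one of them) carry a Frizzled-like domain that binds Wnt ligands outside the cell, and Wif1 also binds the ligands. Dkk2 instead binds LRP5 and LRP6, whereas Dkk3 is a divergent Dickkopf protein whose place in the pathway is less clear. In the genome build GRCm38 (annotation GENCODE M21) the genes lay at chr8:23411502-23449632 (*Sfrp1*, +), chr3:83766321-83774316 (*Sfrp2*, +), chr13:19623104-19632994 (*Sfrp4*, +), chr19:42197971-42202252 (*Sfrp5*, −), chr2:80411970-80447625 (*Frzb*, −), chr3:132085292-132180304 (*Dkk2*, +), chr7:112116017-112159057 (*Dkk3*, −) and chr10:121033960-121100650 (*Wif1*, +). They were not neighbours, and their spans from first to last base ran from 4.28 kb (*Sfrp5*) to 95.01 kb (*Dkk2*).

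The 250 bases upstream of *Sfrp2* and *Dkk2* are shown as examples, 5′ to 3′ on the gene's strand (RefSeq, GRCm38.p6). Letters in capitals mark CTTTGA or CTTTGT, the core of the sites bound by the TCF/LEF factors through which β-catenin acts, searched on both strands.
*Sfrp2*, chr3:83766071-83766320, +: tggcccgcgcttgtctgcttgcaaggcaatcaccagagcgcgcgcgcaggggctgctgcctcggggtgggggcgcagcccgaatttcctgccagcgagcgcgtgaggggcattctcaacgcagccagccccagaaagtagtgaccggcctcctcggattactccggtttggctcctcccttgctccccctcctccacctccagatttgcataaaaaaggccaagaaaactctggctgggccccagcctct
*Dkk2*, chr3:132085042-132085291, +: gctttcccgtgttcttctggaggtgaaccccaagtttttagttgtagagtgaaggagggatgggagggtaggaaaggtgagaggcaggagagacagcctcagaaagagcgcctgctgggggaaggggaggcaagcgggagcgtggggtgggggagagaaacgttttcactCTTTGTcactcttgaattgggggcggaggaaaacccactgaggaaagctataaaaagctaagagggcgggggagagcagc
Neither core was found in these letters of *Sfrp2*, and 1 CTTTGT began 80 bases before the *Dkk2* gene. Of 32851 mouse promoters of this length, 27.6% held at least 1 of the 2 cores on either strand, 13.8% CTTTGA and 16.5% CTTTGT, so a single match is a common feature. The promoter table held 5 of the 8 members: *Frzb* also had 1 match, CTTTGA on the other strand, and *Sfrp5* and *Wif1* had none. *Sfrp1*, *Sfrp4* and *Dkk3* had no entry.

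Barcodes with at least 2000 unique molecular identifiers (UMIs) and at most 10% mitochondrial UMIs were taken as cells, 10511 in the wild-type, 12575 in the *Mgp*-KO and 8819 in the *Pd*-KO library, with medians of 12802, 6445 and 8269 UMIs per cell. The files held 184102026, 93212243 and 83942865 UMIs in all. Between 35 and 40 cell barcodes were shared by any pair of libraries. *Mgp* was at 498 CPM (UMIs of a gene per 1000000 UMIs of the cells summed) in wild-type stromal cells, 1.88 CPM in *Mgp*-KO and 0.998 CPM in *Pd*-KO cells, and the *Pd*-KO library held it in mural cells with little *Myh11* at 835 CPM (718 CPM in wild-type) and in endothelial cells at 50.8 CPM (672 CPM in wild-type). Cells with female transcripts made up 35.1%, 60.6% and 32.5% of the libraries and cells with male transcripts 35.1%, 14.7% and 39.5%. The headers of the count files name version 4 of the counting software for the wild-type library and 7.1.0 for both knockouts, so genotype and counting version cannot be told apart in any comparison with wild-type. A 3′ assay is built to count a molecule once whatever its length, but counts in these libraries also moved with genomic span (values are given with the ratios), so the order of genes by CPM within a library is a description. With 1 library per genotype there were no replicates and no test between genotypes was possible. All intervals, in square brackets, are 95% intervals for counting error only.

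Cells positive for the stromal genes *Pdgfra*, *Dcn*, *Lum*, *Dpt* and *Pcolce* numbered 7663 in the wild-type, 11125 in the *Mgp*-KO and 6835 in the *Pd*-KO library. They were split by summed marker levels into 6 gates, none of which uses a Wnt antagonist, each named after its first marker: *Pi16*, *Ccn5*, *Icam1*, *Gdf10*, *Fgf10* and *Crabp1*. The *Pi16* gate holds the *Dpp4*-rich cells of the interstitial adipose stroma. Its share of stromal cells was 21.6% in wild-type, 28.9% in *Mgp*-KO and 50.5% in *Pd*-KO, and that of the *Ccn5* gate was 3.1%, 18.0% and 11.5%. The *Icam1* gate held 24.8% of wild-type stromal cells against 13.8% and 14.6% in the knockouts, and the *Fgf10* gate 10.6% against 6.5% and 6.0%. Stromal cells in no gate made up 23.9%, 18.7% and 8.3%, and between 10.8% and 25.6% lay near a gate's threshold. Whether the counting version also moved the marker sums, and with them the gate shares, was not tested. Not all gates held alike cells in the 3 libraries. In wild-type 95.5% of the *Crabp1* gate lay in an *Fgf10*-led cluster. In *Mgp*-KO (52.8%) and *Pd*-KO (55.1%) its largest part lay in a *Crabp1*-led one. The main cluster of the *Gdf10* gate, *Gdf10*-led in each library, held 93.7% of its cells in wild-type, 81.9% in *Mgp*-KO and 63.6% in *Pd*-KO. *Crabp1* itself was at 1050 CPM in the wild-type *Crabp1* gate but 214 and 271 CPM in the knockouts, where the other marker, *Hmcn1*, carried the gate (328, 1166 and 1293 CPM). The largest part of the *Fgf10* gate lay in an *Icam1*-led cluster in *Mgp*-KO (39.3% of its cells) and *Pd*-KO (57.2%), against an *Fgf10*-led cluster in wild-type (59.9%). That of the *Ccn5* gate lay in a *Pi16*-led cluster in wild-type (38.2%) and *Pd*-KO (51.5%), but in a *Ccn5*-led cluster in *Mgp*-KO (28.4%).

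The 8 antagonists were not found in the same classes of cells (the plot of levels by class). In wild-type stroma as a whole *Sfrp2* was by far the highest at 409 CPM [405, 413], followed by *Sfrp4* at 123 CPM [121, 125], *Sfrp1* at 46.3 CPM [45.1, 47.6], *Dkk2* at 39.0 CPM [37.8, 40.2] and *Dkk3* at 10.3 CPM [9.72, 10.9]. The other 3 were below 1 CPM in stromal cells. *Frzb* stood at 0.934 CPM, *Sfrp5* at 0.382 CPM and *Wif1* at 0.133 CPM. *Sfrp5* was highest in Schwann cells and *Wif1* in basal epithelial cells instead.

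**Figure D1:**
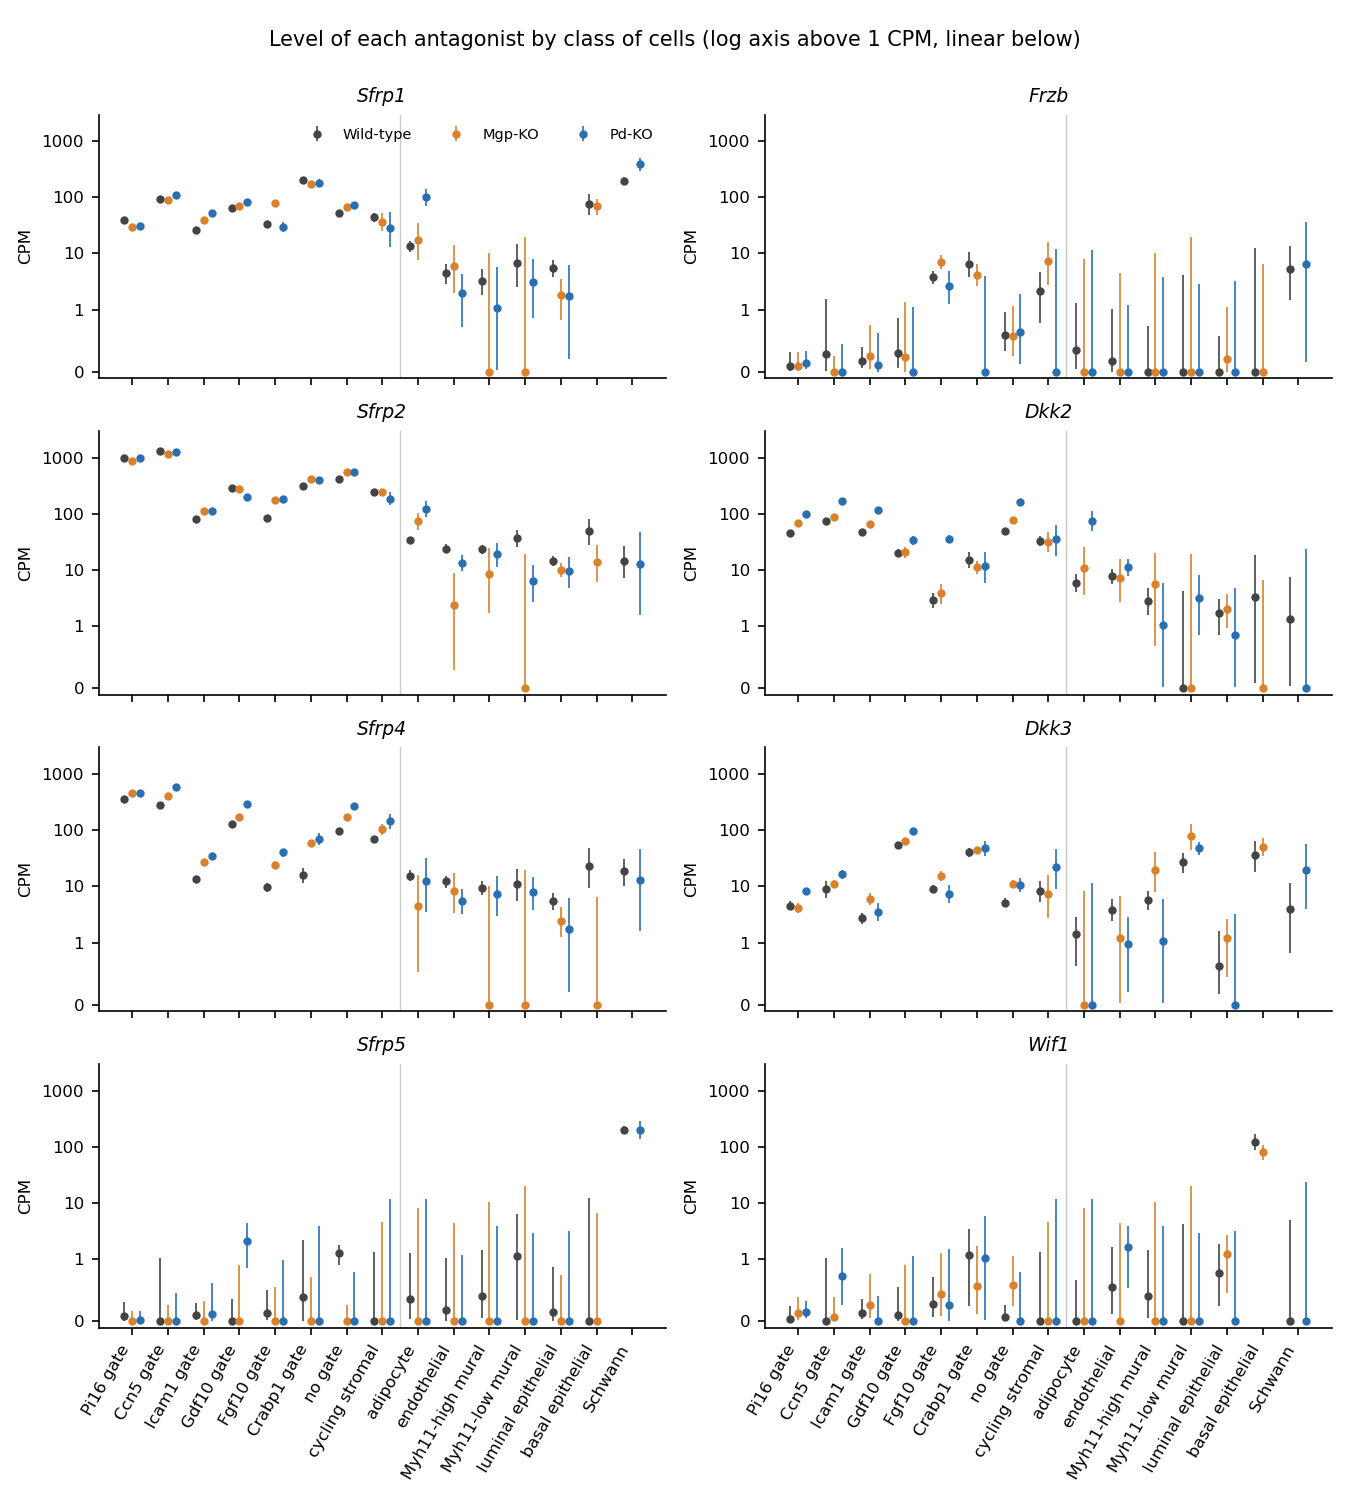
Level of each of the 8 secreted Wnt antagonists (CPM of summed UMIs, log axis above 1 CPM and linear below) by class of cells, with 1 panel per gene, stromal classes left of the grey line and other cell types right of it. Points are wild-type (dark grey), *Mgp*-KO (orange) and *Pd*-KO (blue), bars are 95% intervals for counting error only, and classes of under 20 cells are not drawn. *Sfrp2* and *Sfrp4* sit highest in the *Pi16* and *Ccn5* gates of all 3 libraries. *Sfrp5* sits highest in Schwann cells of wild-type and *Pd*-KO, and *Wif1* in basal epithelial cells of wild-type and *Mgp*-KO. Those classes are not drawn in the remaining library of each.

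*Sfrp2*, a Wnt-binding protein of connective tissue, was a gene of the *Ccn5* and *Pi16* gates in every library. In the *Ccn5* gate it reached 1332 CPM in wild-type, 1176 CPM in *Mgp*-KO and 1256 CPM in *Pd*-KO. The 10 richest of the 241 wild-type cells of this gate held 32.0% of its *Sfrp2* UMIs, against 5.60% for those of 1999 *Mgp*-KO cells. In the *Pi16* gate it was at 977 CPM, 880.3 CPM and 985 CPM. As measured, these levels lay close together. The log2 ratios to wild-type of *Mgp*-KO and *Pd*-KO were −0.18 [−0.23, −0.13] and −0.08 [−0.13, −0.03] in the *Ccn5* gate. In the *Pi16* gate they were −0.15 [−0.18, −0.12] and 0.01 [−0.01, 0.04]. Across all stromal cells the level was nevertheless higher in both knockouts, at 635 CPM (*Mgp*-KO) and 771 CPM (*Pd*-KO) against 409 CPM. The log2 ratios were 0.63 [0.62, 0.65] and 0.92 [0.90, 0.93]. Within the stromal difference as measured, the shares of the classes and the levels inside them were then set apart. Relative to genes of similar genomic span the stromal *Sfrp2* ratios were slightly higher, and no split is given on that scale. When the wild-type levels of each stromal class were combined with the knockout's share of UMIs in that class, the log2 ratio was 0.66 for *Mgp*-KO and 0.89 for *Pd*-KO, and when the knockout levels were combined with wild-type shares it was 0.10 and 0.17. The *Pi16* and *Ccn5* gates together held 58.7% of the stromal *Sfrp2* UMIs in wild-type, 73.0% in *Mgp*-KO and 89.1% in *Pd*-KO.

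Outside those gates *Sfrp2* was less uniform. In the *Fgf10* gate, whose cells clustered elsewhere in the knockouts, it was at 84.8 CPM in wild-type, 174 CPM in *Mgp*-KO and 182 CPM in *Pd*-KO. Both knockouts were about 2-fold higher (log2 1.04 [0.92, 1.15] and 1.10 [0.96, 1.24]). In wild-type 1 of the 813 cells of this gate held 245 of its 1233 *Sfrp2* UMIs. The 10 richest cells held 38.8% in wild-type and 16.6% in *Mgp*-KO. In the *Icam1* gate, the committed preadipocyte-like end of the stroma by its *Icam1* and *Cd36*, it was at 80.0, 114 and 112 CPM. In the *Gdf10* gate it was lower in *Pd*-KO (203 CPM) than in wild-type (288 CPM) or *Mgp*-KO (274 CPM). The classes next below the *Ccn5* and *Pi16* gates in each library were stromal cells in no gate and then the *Crabp1* gate. Stromal cells in no gate held 24.0%, 15.2% and 5.29% of the stromal *Sfrp2* UMIs. Endothelial cells, which should lack the gene, held 24.0, 2.40 and 13.4 CPM, while empty barcodes of 10 to 100 UMIs, the free RNA, held 92.2, 450.4 and 671 CPM. Free *Sfrp2* was thus more frequent in the knockout libraries, whereas the level in endothelial cells was not, and no correction for it was made.

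*Sfrp4*, the family member known as a secreted product of adipose stroma, shared the gates of *Sfrp2* but differed between genotypes within them as well. Across stromal cells it was at 123 CPM in wild-type, 256 CPM in *Mgp*-KO and 367 CPM in *Pd*-KO, a log2 ratio of 1.06 [1.03, 1.09] and 1.58 [1.55, 1.61]. In the *Pi16* gate it was at 354, 464 and 463 CPM, so both knockouts stood 0.39 above wild-type on the log2 scale and level with each other. In the *Ccn5* gate, whose cells clustered differently in *Mgp*-KO, it was at 287 CPM in wild-type, 405 CPM in *Mgp*-KO and 593 CPM in *Pd*-KO. The same order held in the *Gdf10* gate with 129, 174 and 292 CPM, where *Pd*-KO stood 1.18 [1.06, 1.30] above wild-type (log2) and *Mgp*-KO 0.43 [0.30, 0.57].

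In the gates with little *Sfrp4* the ratios were larger, on small levels. The *Fgf10* gate held 9.62, 24.5 and 40.3 CPM in wild-type, *Mgp*-KO and *Pd*-KO, the *Icam1* gate 13.8, 27.6 and 35.5 CPM and the *Crabp1* gate 15.9, 59.3 and 71.0 CPM. Those of wild-type lay near the 12.3 CPM of wild-type endothelial cells (8.39 and 5.54 CPM in the knockouts), a level to be read as background. Free *Sfrp4* was at 39.2, 192 and 242 CPM. Class shares and levels both carried the stromal difference of *Sfrp4* as measured. Swapping in the knockout's shares alone gave log2 ratios of 0.56 (*Mgp*-KO) and 0.98 (*Pd*-KO), and swapping in its levels alone gave 0.54 and 0.87.

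**Figure D2:**
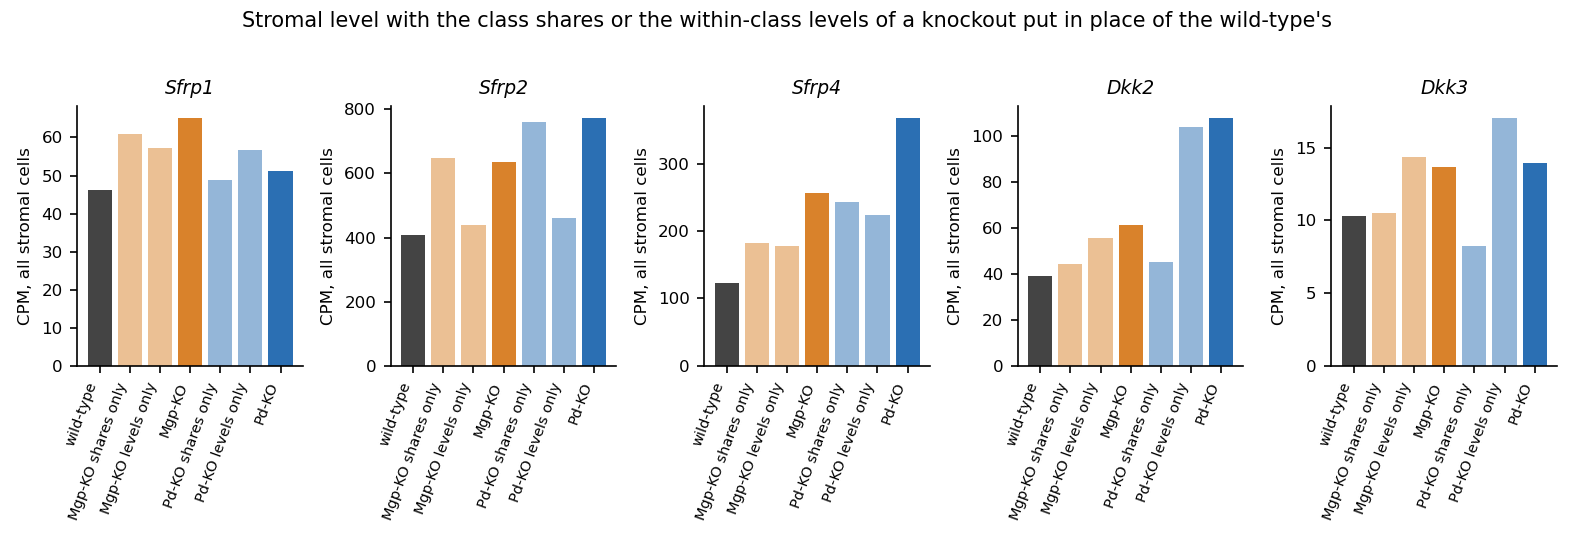
CPM of 5 antagonists in all stromal cells (1 panel per gene, each with its own axis from 0): as measured in wild-type (dark grey), *Mgp*-KO (orange) and *Pd*-KO (blue), and in pale bars the wild-type after only the class shares or only the within-class levels of a knockout were put in place of its own. The pale bars of shares reach the measured knockout levels of *Sfrp2* (635 and 771 CPM). For *Dkk2* the pale bars of levels come nearer to the measured 61.4 and 108 CPM. No bar is relative to genes of like span.

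The ratio of the 2 genes also differed between libraries. Stromal cells held 3.33 *Sfrp2* UMIs per *Sfrp4* UMI in wild-type, 2.48 in *Mgp*-KO and 2.10 in *Pd*-KO. In the *Gdf10* gate the ratio went from 2.24 in wild-type to 1.58 in *Mgp*-KO and 0.697 in *Pd*-KO. *Sfrp4* was thus the more abundant of the pair in the *Gdf10* gate of *Pd*-KO and in no other gate of any library. Of the cells of that gate, 63.6% lay in its main cluster in *Pd*-KO, against 93.7% in wild-type. Its 10 richest cells held 30.2% of the *Sfrp2* and 20.8% of the *Sfrp4* UMIs in wild-type, and 36.0% and 24.8% in *Mgp*-KO. In the *Crabp1* gate, which did not hold alike cells, the ratio went from 19.7 to 6.91 and 5.70. The wild-type value rests on 41 *Sfrp4* UMIs, a level near background. Summed over the 8 genes, antagonist UMIs stood at 629 CPM in wild-type stroma, 1032 CPM in that of *Mgp*-KO and 1312 CPM in that of *Pd*-KO. Within the *Pi16* gate the sums were closer, at 1422, 1448 and 1588 CPM, and in the *Ccn5* gate they were 1794, 1770 and 2146 CPM (the plot of antagonist make-up).

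**Figure D3:**
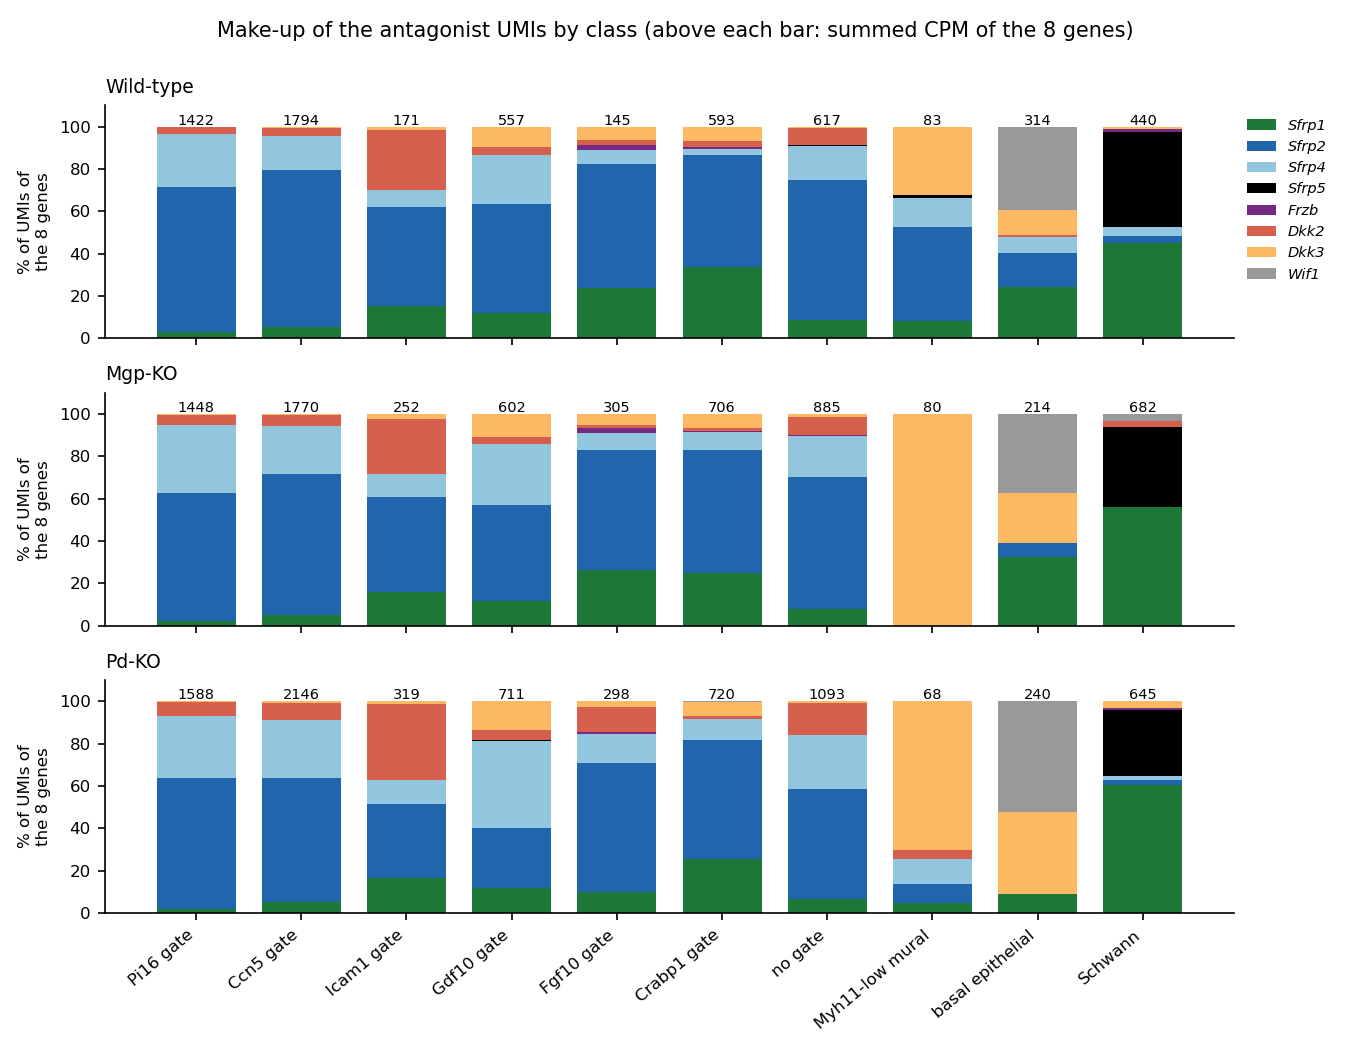
Share of each gene among the UMIs of all 8 antagonists (% of their summed UMIs, colours are genes) by class of cells, with 1 panel per library and the summed CPM of the 8 genes above each bar. *Mgp*-KO Schwann cells (14 cells) and *Pd*-KO basal epithelial cells (12 cells) rest on few cells. *Sfrp2* fills most of the *Pi16* and *Ccn5* bars, and *Sfrp4* takes a larger part of these in the knockouts. In the Schwann bars *Sfrp1* is the largest part, followed by *Sfrp5*. In the basal epithelial bars *Wif1* is the largest part, beside *Sfrp1* and *Dkk3*.

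Shares of positive cells were compared after thinning every cell to 2000 UMIs. The share of stromal cells with a *Sfrp2* UMI was then 31.6% [30.6, 32.7] in wild-type, 45.6% [44.7, 46.5] in *Mgp*-KO and 51.7% [50.5, 52.9] in *Pd*-KO (58.1%, 64.8% and 72.1% unthinned, at medians of 14090, 6486 and 9191 UMIs). Endothelial cells gave 5.71%, 0.877% and 2.22% at medians of 6214, 3192 and 3872 UMIs. For *Sfrp4* the stromal shares were 16.8%, 28.0% and 38.5%, and the endothelial ones 2.72%, 0.877% and 1.63%. Stromal cells with at least 1 of the 8 genes made up 46.0% in wild-type, 63.9% in *Mgp*-KO and 70.5% in *Pd*-KO, and at least 2 of them in 15.8%, 26.6% and 35.4%. *Sfrp4* was more frequent in cells with a *Sfrp2* UMI than in those without one (31.9% against 9.73% in wild-type, 39.5% against 18.4% in *Mgp*-KO, 52.0% against 24.1% in *Pd*-KO). Within the *Pi16* gate the values were closer, at 46.1% against 42.6%, 52.4% against 45.7% and 56.5% against 46.1%. The *Ccn5* gate gave 42.4% against 21.1% in wild-type, 45.7% against 33.2% in *Mgp*-KO and 58.3% against 48.4% in *Pd*-KO. Stromal cells in no gate kept a wide contrast in each library, with 21.6% against 8.52%, 27.1% against 14.4% and 39.7% against 17.0%.

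*Sfrp1*, a broad Wnt inhibitor, had a different map. Its highest stromal level was in the *Crabp1* gate, at 201 CPM [184, 219] in wild-type, 176 CPM [165, 188] in *Mgp*-KO and 183 CPM [157, 213] in *Pd*-KO. Schwann cells held 199 CPM [168, 233] in wild-type, a level not apart from that of the *Crabp1* gate, and 391 CPM [298, 503] in *Pd*-KO. In the 14 *Mgp*-KO Schwann cells the level was 383 CPM from 18 UMIs, of which 10 lay in 1 cell. Basal epithelial cells of the mammary ducts held 76.8 CPM in wild-type and 68.9 CPM in *Mgp*-KO, and the 12 such cells of *Pd*-KO held 2 UMIs. Endothelial cells stayed between 1.95 and 5.99 CPM. Over all stromal cells *Sfrp1* was at 46.3 CPM in wild-type, 65.0 CPM in *Mgp*-KO and 51.3 CPM in *Pd*-KO.

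Its differences ran in opposite directions in different gates. In the *Pi16* gate *Sfrp1* was lower in both knockouts, at 30.1 and 30.5 CPM against 40.2 CPM (log2 −0.42 [−0.56, −0.27] and −0.40 [−0.53, −0.27]). In the *Icam1* gate it was higher in both, at 39.5 and 52.6 CPM against 26.3 CPM. The *Fgf10* gate separated the knockouts, with 79.8 CPM in *Mgp*-KO against 34.2 CPM in wild-type and 29.9 CPM in *Pd*-KO. *Pd*-KO adipocyte-like cells, 21 in number, held 101 CPM from 32 UMIs, against 13.5 CPM in 175 wild-type cells.

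*Sfrp5*, described as an adipokine made by adipocytes, was nearly absent from the adipocyte-like cells read here, but mature adipocytes had been spun off. It was at 0.360 CPM in the 175 wild-type adipocyte-like cells (2 UMIs) and had no UMI in those of the knockouts (32 and 21 cells). Schwann cells held 197 CPM [167, 232] in wild-type, 256 CPM [132, 447] in *Mgp*-KO and 202 CPM [137, 287] in *Pd*-KO, from 148, 12 and 31 UMIs, levels not apart within their counting error. After thinning, 35.6%, 35.7% and 29.5% of Schwann cells had a *Sfrp5* UMI. Stromal cells held 43, 0 and 9 UMIs. Of the 43 in wild-type, 18 lay in 1 cell, and the 0 UMIs in *Mgp*-KO allow up to 0.0332% of thinned stromal cells to hold a *Sfrp5* UMI, a limit on cells with a UMI and not on cells that express the gene. Wild-type cells with markers of 2 lineages held 59 *Sfrp5* UMIs, and wild-type cells that met no lineage threshold held 44 (27.0 CPM). In *Mgp*-KO these held 4 and 0 UMIs and in *Pd*-KO 5 and 11. Free RNA held 80.9 CPM of *Sfrp5* in wild-type against 0 and 0.897 CPM in the knockouts, and its source was not tested.

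*Frzb*, also known as Sfrp3, was rare. Stromal cells held 105 UMIs in wild-type (0.934 CPM [0.764, 1.13]), 90 in *Mgp*-KO (1.14 CPM [0.914, 1.40]) and 19 in *Pd*-KO (0.292 CPM [0.176, 0.455]). Over all stromal cells the *Pd*-KO level was thus lower, by a log2 ratio of −1.68 [−2.47, −0.96]. The *Mgp*-KO level over all stromal cells did not differ beyond counting error (0.28 [−0.14, 0.70]). The *Fgf10* gate held about the same part of these UMIs in each library (52.4%, 53.3% and 52.6%). Within that gate, whose cells clustered elsewhere in the knockouts, *Pd*-KO did not differ from wild-type beyond counting error (log2 −0.502 [−1.64, 0.48]). *Mgp*-KO was higher there beyond it (0.91). These ratios rest on 10 *Pd*-KO, 48 *Mgp*-KO and 55 wild-type UMIs. Swapping in *Pd*-KO class shares alone gave a stromal log2 ratio of −0.94, and swapping in its levels alone −0.75 (*Mgp*-KO 0.097 and 0.63). The *Crabp1* gate held 17, 22 and 0 UMIs, and the 0 of *Pd*-KO came from 98 cells and allows up to 3.91 CPM against 6.58 CPM in wild-type. Free *Frzb* RNA was at 15.7 CPM in wild-type, above every stromal class, against 1.27 and 0.598 CPM in the knockouts, and its part in the wild-type values was not tested.

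*Dkk2*, which binds the co-receptors rather than the ligands, was higher in *Pd*-KO than in wild-type beyond counting error in 5 of the 6 gates. Over all stromal cells it was at 39.0 CPM [37.8, 40.2] in wild-type, 61.4 CPM [59.7, 63.1] in *Mgp*-KO and 108 CPM [105, 110.3] in *Pd*-KO. The log2 ratios were 0.65 [0.60, 0.71] and 1.47 [1.41, 1.52], but relative to the 200 genes nearest in genomic span they were −0.10 and 0.52, so that the *Mgp*-KO direction turned and *Pd*-KO was no longer past 2-fold. Unlike *Sfrp2* it was as frequent in the *Icam1* gate as in the *Pi16* gate. The *Icam1* gate held 48.2 CPM in wild-type, 64.8 CPM in *Mgp*-KO and 115 CPM in *Pd*-KO, the *Pi16* gate 45.1, 69.7 and 101 CPM, and the *Ccn5* gate 73.4, 87.9 and 171 CPM. In these 3 gates *Pd*-KO stood 1.25, 1.17 and 1.22 above wild-type on the log2 scale, and *Mgp*-KO 0.43, 0.63 and 0.26. Relative to genes of like span these were 0.23, 0.28 and 0.20 in *Pd*-KO and −0.40, 0.05 and −0.49 in *Mgp*-KO, and the *Gdf10* gate of *Pd*-KO went from 0.75 to −0.08. The *Crabp1* gate had little *Dkk2* in any library (15.1, 11.3 and 11.7 CPM). Stromal cells in no gate held 48.8, 78.4 and 165 CPM, and no value relative to genes of like span is given for them.

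Class shares had a smaller part than levels in the *Dkk2* difference as measured. Relative to genes of like span that difference itself was smaller, and no split is given on that scale. Swapping in knockout shares alone gave log2 ratios of 0.18 (*Mgp*-KO) and 0.21 (*Pd*-KO), and swapping in levels alone gave 0.52 and 1.42. The *Fgf10* gate gave the highest ratio, 36.0 CPM in *Pd*-KO against 2.89 CPM in wild-type and 3.86 CPM in *Mgp*-KO, but 27 of 407 *Pd*-KO cells carried its 135 UMIs and 10 cells carried 73.3% of them. In the *Gdf10* gate of *Pd*-KO the 10 richest of 35 positive cells held 68.8% of 112 UMIs, and in the *Crabp1* gate 7 cells held all 11. The UMIs of the *Pi16*, *Ccn5* and *Icam1* gates lay in 904, 224 and 264 cells, of which the 10 richest held 9.94%, 24.1% and 18.1%. Thinned stromal cells with a *Dkk2* UMI numbered 6.06% [5.53, 6.61], 8.42% [7.91, 8.95] and 11.7% [10.9, 12.4]. Endothelial cells gave 1.36%, 0.439% and 1.04%, and 7.70, 7.19 and 11.1 CPM. *Dkk2* was also at 185 CPM in the 391 *Pd*-KO cells that met no lineage threshold, against 2.46 CPM and 8.86 CPM in the 210 and 204 such cells of the other libraries.

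**Figure D4:**
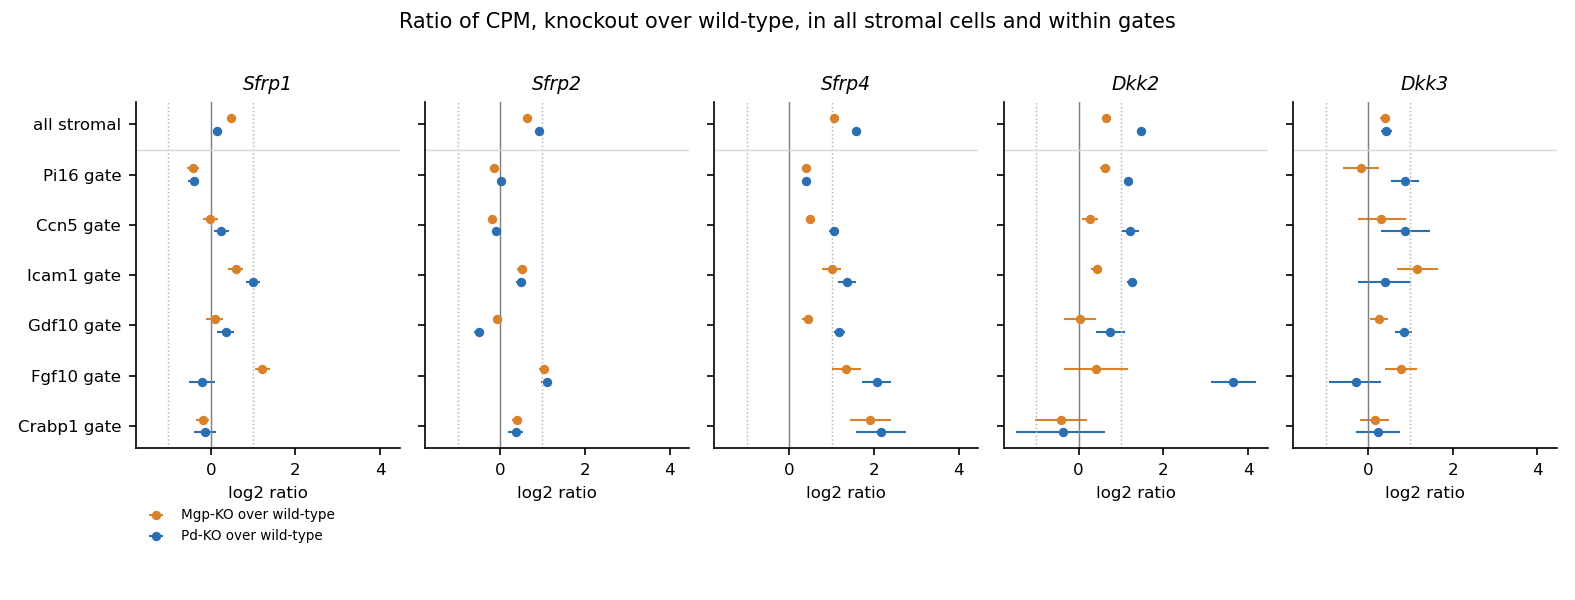
Log2 ratios of CPM, *Mgp*-KO (orange) and *Pd*-KO (blue) over wild-type, for 5 antagonists in all stromal cells and in each of the 6 gates. Bars are 95% intervals for counting error only and dotted lines mark 2-fold. *Sfrp2* lies near 0 in the *Pi16* and *Ccn5* gates, *Sfrp4* above 0 in every gate, and *Dkk2* above 1 in the *Pi16*, *Ccn5* and *Icam1* gates of *Pd*-KO, where it was at 0.28, 0.20 and 0.23 relative to genes of like span.

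The length of a gene moved with these ratios. Over 14198 genes with at least 100 UMIs in the stromal cells of both libraries, the median log2 ratio of *Mgp*-KO to wild-type was 0.15, and over 14002 genes that of *Pd*-KO was 0.18. From the first to the last of 4 equal groups of genes ordered by genomic span, the median went from −0.16 to 0.93 in *Mgp*-KO and from −0.26 to 1.08 in *Pd*-KO. Between the knockouts, whose headers name the same version, it went only from −0.09 to 0.20. *Dkk2* spans 95.01 kb, and its values relative to the 200 genes nearest in span are those given with its levels. *Sfrp4* at 9.89 kb was hardly moved, at 1.08 and 1.63, and *Sfrp2* at 7.996 kb stood slightly higher, at 0.73 and 1.11. *Sfrp1* changed to 0.28 and −0.14, *Dkk3* to 0.09 and −0.02 and *Frzb* to 0.08 and −1.98.

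**Figure D5:**
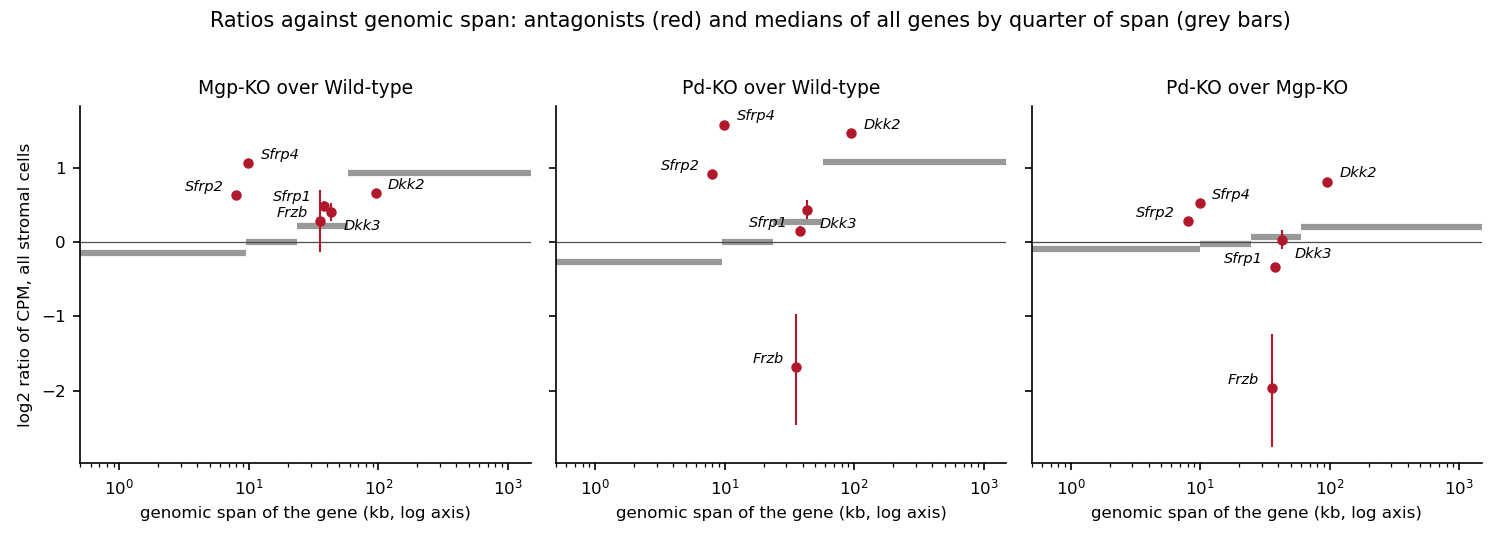
Log2 ratio of CPM in all stromal cells against genomic span (kb, log axis) for the 6 antagonists that could be compared (red, with 95% intervals for counting error), in 1 panel for each pair of libraries, where *Frzb* carries a wide interval. Grey bars are the medians of all genes in 4 equal groups by span, of which the first and last reach past the axis limits. The grey bars of both knockouts over wild-type climb with span, those of *Pd*-KO over *Mgp*-KO much less, and *Sfrp4* and *Sfrp2* stand above the bar of their span in each panel.

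The knockout libraries, whose headers name the same counting version, were also compared with each other. Their shares of female and male cells and their free RNA differed. In *Pd*-KO stroma *Dkk2* was 0.81 [0.76, 0.86] above *Mgp*-KO on the log2 scale (0.61 relative to genes of like span), *Sfrp4* 0.52 [0.49, 0.55] and *Sfrp2* 0.28 [0.26, 0.30]. *Sfrp1* was lower, at −0.34 [−0.40, −0.28], *Frzb* also, at −1.96 [−2.76, −1.24], and *Dkk3* did not differ beyond counting error (0.03 [−0.10, 0.16]). Within gates *Dkk2* was higher in *Pd*-KO by 0.54 (*Pi16*), 0.96 (*Ccn5*), 0.83 (*Icam1*) and 0.72 (*Gdf10*). *Sfrp4* was level in the *Pi16* gate (−0.00 [−0.04, 0.03]) and 0.55 and 0.75 higher in the *Ccn5* and *Gdf10* gates.

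*Dkk3* was a gene of the *Gdf10* and *Crabp1* gates. The *Gdf10* gate held 54.1 CPM [49.7, 58.9] in wild-type, 64.6 CPM [57.0, 72.9] in *Mgp*-KO and 96.8 CPM [86.5, 108] in *Pd*-KO, and the *Crabp1* gate 40.3, 44.9 and 47.7 CPM. The *Pi16* gate held 4.57, 4.08 and 8.35 CPM. Outside the stroma *Dkk3* was found in mural cells with little *Myh11*, at 27.0, 79.8 and 48.0 CPM from 24, 15 and 61 UMIs, and in basal epithelial cells, at 36.7, 51.2 and 94.0 CPM from 11, 29 and 9 UMIs. Over all stroma it was at 10.3, 13.7 and 13.9 CPM. The near-equal totals of the knockouts had unlike parts as measured. In *Pd*-KO the class shares alone gave a log2 ratio of −0.33 and the levels alone 0.72, against 0.03 and 0.48 in *Mgp*-KO. Relative to genes of like span *Dkk3* hardly differed from wild-type over all stroma, and no split is given on that scale.

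*Wif1* was highest in basal epithelial cells, the myoepithelial layer of the mammary ducts that run through the inguinal pad. Their level was 123 CPM [86.9, 170.2] in wild-type, 79.5 CPM [58.0, 106] in *Mgp*-KO and 125 CPM [64.8, 219] in *Pd*-KO, from 37, 45 and 12 UMIs in 23, 104 and 12 cells. These levels were not apart within counting error. Luminal epithelial cells held 0.781 and 1.22 CPM in wild-type and *Mgp*-KO and no UMI in *Pd*-KO, and stromal cells between 0.133 and 0.265 CPM. Cells that met no lineage threshold held about as many *Wif1* UMIs as basal epithelial cells in wild-type (32, at 19.7 CPM) and *Mgp*-KO (45, at 44.3 CPM), and 8 in *Pd*-KO (4.90 CPM).

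At 2-fold in all stromal cells, 6 of the 8 genes had the 100 UMIs required (not *Sfrp5* and *Wif1*). In *Mgp*-KO 1 of the 6 was at least 2-fold higher, *Sfrp4*, where 17.6% of all genes were, and 0 were lower, where 3.46% were. In *Pd*-KO 2 were higher, *Sfrp4* and *Dkk2*, where 20.2% of all genes were, and 1 was lower, *Frzb*, where 6.36% were. Relative to genes of like span *Dkk2* was not past 2-fold and *Sfrp2* was. With so few genes these shares do not set the members apart from all genes. The members' median log2 ratio was 0.56 in *Mgp*-KO and 0.68 in *Pd*-KO, and 6 of 6 and 4 of 6 lay above the median of all genes. Within the 6 gates 29 pairs of gene and gate could be compared in each knockout. In *Mgp*-KO 5 were at least 2-fold higher (15.5% of all such pairs of any gene), 4 of *Sfrp* genes and 1 of *Dkk3*. In *Pd*-KO 10 were (18.4% of all pairs), 5 of *Sfrp4*, 4 of *Dkk2* and 1 of *Sfrp2*. The *Sfrp4* pairs of the *Fgf10*, *Icam1* and *Crabp1* gates rest on wild-type levels near those of endothelial cells, read as background. Relative to genes of like span, 1 of the 4 *Dkk2* pairs stayed past 2-fold, that of the *Fgf10* gate (log2 2.57). In neither knockout was a pair at least 2-fold lower (1.29% and 2.37% of all pairs).

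The genes whose levels ran most like those of the antagonists were sought over 37 sums of a cell class in a library, among 7463 genes with at least 50 CPM in some sum. The sums share 3 libraries, so the Pearson correlations of log2(CPM + 1) are a description. For *Sfrp2* they were *AW551984* (0.96), the glypican *Gpc3* (0.94) and *Lrrn4cl* (0.94). *Sfrp4* ran with *Fndc1* (0.95), the collagen-processing enhancer *Pcolce2* (0.93) and *Scara5* (0.93). *Dkk2* ran with *Fgf18* (0.90), *Lbp* (0.90) and also *Fndc1* (0.89), and *Sfrp1* with *Rap2b* (0.91), *Rcn1* (0.90) and *Gpr153* (0.90). The glial genes *Cmtm5* (0.97), *Sox2* (0.96) and *Kcnj10* (0.96) were nearest to *Sfrp5*, and the basal epithelial genes *Col17a1* (0.94), *Krt15* (0.92) and *Lama1* (0.91) to *Wif1*. *Dkk3* had no close neighbour, with *Rdh14* (0.76), *Dact3* (0.74) and *Scarf2* (0.74) as its nearest. Among members, *Sfrp2* and *Sfrp4* correlated at 0.90, *Sfrp4* and *Dkk2* at 0.81 and *Sfrp2* and *Dkk2* at 0.78.

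The other genes of the Wnt pathway were read in the same stromal sums. Of 77 listed genes 57 could be compared. In *Mgp*-KO 15 were at least 2-fold higher and 2 lower, with a median log2 ratio of 0.38. In *Pd*-KO 22 were higher and 4 lower, with a median of 0.65. Of all genes 17.6% and 20.2% were higher and 3.46% and 6.36% lower in *Mgp*-KO and *Pd*-KO. Relative to genes of like span 7 and 14 of the listed genes were higher. The share of all genes on that scale is not given, so these counts do not set the list apart from all genes. Of the listed genes at least 2-fold higher as measured in both knockouts, with at least 10 CPM in a library, 4 were receptors. *Ror1*, a receptor for Wnt5 ligands, was at 11.5 CPM in wild-type, 129 CPM in *Mgp*-KO and 96.01 CPM in *Pd*-KO, and its relative *Ror2* at 13.2, 66.7 and 66.6 CPM. The R-spondin receptors *Lgr4* and *Lgr5* were at 10.6, 33.3 and 47.6 CPM and at 1.64, 10.2 and 7.92 CPM. The ligand *Wnt5b* was at 2.28, 6.69 and 13.0 CPM, and *Trabd2b*, a membrane enzyme that inactivates Wnt ligands, at 14.7, 33.3 and 36.2 CPM. The scaffold *Axin1* was at 12.7, 27.6 and 29.2 CPM, the TCF factor *Tcf7l1* at 55.8, 141 and 180.0 CPM and *Znrf3*, which removes Frizzled receptors, at 3.93, 18.6 and 16.9 CPM. All 9 are long genes, from 57.1 kb (*Axin1*) to 349 kb (*Ror1*), and relative to genes of like span 1 of them, *Lgr5*, stayed past 2-fold in both knockouts (log2 1.72 in *Mgp*-KO and 1.21 in *Pd*-KO). Listed genes under 10 CPM in every library are not named. Some of those are shorter, down to 3.25 kb, and were also at least 2-fold higher in both knockouts, as measured and relative to genes of like span. On that scale *Ror1* was at 1.38 and 0.73, *Lgr4* at 0.90 and 1.19, *Wnt5b* at 0.64 and 1.41, *Ror2* at 0.98 and 0.76 and *Znrf3* at 0.95 and 0.51. *Axin1* was at 0.70 and 0.62 and *Tcf7l1* at 0.13 and 0.26, while *Trabd2b* stood at −0.29 and −0.43.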

How the data were processed

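Counts of UMIs, neither filtered nor normalized, were deposited for 3 libraries of 10x Genomics 3′ v3 chemistry, 1 per genotype, with a value for each pair of gene and barcode. The paper names Cell Ranger 6.1.1 with default parameters and mm10, and the submitters' processing notes name Cell Ranger 6.1.1 and GRCm39. The file headers instead name Cell Ranger 4 (wild-type) and 7.1.0 (both knockouts). Whether reads of introns were counted is not given in the sources used here. Genomic spans came from GENCODE M21, which held 99.8% of the gene IDs.

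Cells had at least 2000 UMIs and at most 10% mitochondrial UMIs. Marker sums per 10000 UMIs assigned lineages and gates, with thresholds set after the values were seen. Cells with markers of 2 lineages were set aside as mixed, and no doublet caller was run. The members and gene lists were chosen with earlier results of these data known. The named genes are the 8 members, the 3 genes most like each member that reached 50 CPM, the Wnt genes past 2-fold the same way in both knockouts with at least 10 CPM in a library, and *Mgp*.

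UMIs were summed per class and library and scaled to CPM. Intervals are exact (Poisson for levels, Clopper-Pearson for shares, conditional binomial for ratios) at 95% and for counting error only. Genes needed 100 UMIs over both libraries, with 0.5 counts added for ratios over all genes. Shares used cells thinned to 2000 UMIs. A count of 0 was read against a floor of 3 counts or the interval's upper limit. Clusters for an alternative used 2000 variable genes, 30 principal components, 20 neighbors and Leiden at a resolution of 1. Promoter sequences came from RefSeq (GRCm38.p6). The ratio, interval and span steps were tested on simulated data, with a span effect weaker than that seen here. Python 3.11.15, numpy 2.4.6, pandas 2.3.3, scipy 1.17.1, scanpy 1.11.5, leidenalg 0.10.2 and matplotlib 3.10.9 were used.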

Additional observations from a re-analysis of the deposited data

How the results depend on the processing

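No paired analysis was possible because each genotype has 1 library, and for the same reason no library could be left out. Of 70 member ratios, 19 were past 2-fold as reported. None of them was past 2-fold in the other direction under any alternative run, which a mere change of sign does not break. Of those that could be computed, 7 of 9 stayed past 2-fold with clusters, 9 of 15 in female and 10 of 12 in male cells. With median-ratio scaling 12 of 19 stayed, and 13 of 19 relative to genes of like span. Of all member ratios, 44 of 54 kept their sign in male cells, 48 of 54 with stricter gates, 54 of 60 in female cells and 57 of 70 relative to genes of like span. The number of gate ratios past 2-fold (5 in *Mgp*-KO, 10 in *Pd*-KO) was 3 and 5 with stricter gates, 1 and 5 with clusters in place of gates, 3 and 3 in female cells, 2 in male *Mgp*-KO cells and 5 in *Pd*-KO with median-ratio scaling. Fewer ratios could be compared in the first 4 of these. The share of all pairs past 2-fold is not given for these settings, so the counts do not set the members apart from all genes. Of the members in all stromal cells of *Mgp*-KO, 0 were past 2-fold with median-ratio scaling (*Sfrp4* at 0.91) and 2 when all genes with at least 1 UMI were kept (*Sfrp5* added), against 1 as reported. In *Pd*-KO the count of 3 was made of *Sfrp2*, *Sfrp4* and *Dkk2* in female cells and of *Sfrp2*, *Sfrp4* and *Frzb* relative to genes of like span. The highest class of a member in a library was the one reported in 23 pairs of member and library, in 15 with clusters and in 9 in male cells. Cells with any member made up 79.0%, 82.4% and 88.0% of stromal cells without thinning, against 46.0%, 63.9% and 70.5%. The Wnt genes at least 2-fold higher numbered 7 and 14 relative to genes of like span, against 15 and 22, with no share of all genes given on that scale. The comparison with genes of like span, that of *Pd*-KO with *Mgp*-KO and the swap of shares and levels were chosen after seeing the data. Over all alternatives the stromal log2 ratio of *Sfrp4* stayed between 0.91 and 1.20 in *Mgp*-KO and between 1.40 and 1.67 in *Pd*-KO, that of *Sfrp2* between 0.49 and 0.82 and between 0.66 and 1.23, and that of *Dkk2* between −0.10 and 0.93 and between 0.52 and 1.74. Members under about 1 CPM rest on few UMIs, so depth limits every statement on *Frzb*, *Sfrp5* and *Wif1* in stromal cells.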
